A study of Mus musculus with 15 samples.

Results

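The 10 genes described here encode the TGF-beta ligands (*Tgfb1*, *Tgfb2* and *Tgfb3*), their receptors (*Tgfbr1*, *Tgfbr2* and *Tgfbr3*), latent TGF-beta binding proteins (*Ltbp1*, *Ltbp2* and *Ltbp3*) and the inhibitory SMAD protein SMAD7 (*Smad7*). They were picked by symbol, in a choice made with earlier results of these data known, and are 10 of the 56832 genes in the count table. All 10 were among the 18263 genes with enough reads to be tested. The libraries are bulk RNA-seq of mesenchymal stromal cells (MSCs), the adherent marrow cells that give rise to bone and fat, grown from the long bones of 16 week old C57BL/6J mice and sorted with magnetic beads for cells without CD45. The study's methods also name depletion of Ter119+ erythroid and CD31+ endothelial cells, or flow sorting in place of beads, and do not say which was used for which library. Wild-type mice (TauT+/+) were compared with mice that lack the taurine transporter TauT, the product of *Slc6a6*, in every tissue (TauT-/-), so an effect of the deletion in other cells of the mouse is part of the comparison. There were 4 male TauT+/+, 4 male TauT-/-, 3 female TauT+/+ and 4 female TauT-/- libraries, all from cultures in the same medium with serum, and the labels name no further agent.

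TGF-beta is secreted in a latent form, in which the mature ligand is held by its own propeptide, and latent TGF-beta binding proteins tether this complex to fibrillin and fibronectin in the matrix. Ligand that is set free binds the type II receptor, encoded by *Tgfbr2*, which then activates the type I receptor, encoded by *Tgfbr1*, and SMAD2 and SMAD3 carry the signal to the nucleus. SMAD7 is induced by the pathway and shuts it off at the receptor. In bone, TGF-beta stored in the matrix is released when bone is resorbed and draws MSCs to the resorbed site.

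The promoters of *Tgfb1*, *Tgfbr2* and *Ltbp2* are shown because these 3 genes and *Smad7* had the lowest p-values of the 10 genes between the genotypes. The sequences are those of RefSeq on GRCm38.p6, from 250 bases before to 50 bases after the start of transcription, 5′ to 3′ on the strand of the gene. Capitals mark CAGAC, the core of the CAGA element that SMAD3 and SMAD4 bind, and GGGCGG, the GC box of Sp1, on either strand (GTCTG and CCGCCC).
Tgfb1, chr7:25686752-25687051, plus strand: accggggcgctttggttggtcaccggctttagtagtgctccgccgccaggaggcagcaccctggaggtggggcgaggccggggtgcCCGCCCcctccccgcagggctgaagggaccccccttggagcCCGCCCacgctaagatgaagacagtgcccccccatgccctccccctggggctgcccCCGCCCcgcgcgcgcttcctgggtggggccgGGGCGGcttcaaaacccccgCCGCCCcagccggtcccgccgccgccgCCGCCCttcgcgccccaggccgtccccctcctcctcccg
Tgfbr2, chr9:116175314-116175613, minus strand: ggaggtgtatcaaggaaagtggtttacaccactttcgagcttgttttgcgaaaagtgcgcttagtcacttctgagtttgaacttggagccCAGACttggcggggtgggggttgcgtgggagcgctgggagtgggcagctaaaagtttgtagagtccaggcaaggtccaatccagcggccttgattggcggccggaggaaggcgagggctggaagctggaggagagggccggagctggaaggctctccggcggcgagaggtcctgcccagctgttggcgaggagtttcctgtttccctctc
Ltbp2, chr12:84876442-84876741, minus strand: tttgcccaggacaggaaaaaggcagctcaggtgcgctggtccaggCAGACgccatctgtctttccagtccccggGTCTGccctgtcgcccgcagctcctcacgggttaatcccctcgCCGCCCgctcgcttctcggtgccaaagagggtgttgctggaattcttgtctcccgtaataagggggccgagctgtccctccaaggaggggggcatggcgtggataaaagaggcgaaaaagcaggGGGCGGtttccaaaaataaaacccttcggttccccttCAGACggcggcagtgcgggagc
The *Tgfb1* window held 6 copies of GGGCGG and 0 of CAGAC, the *Tgfbr2* window 1 CAGAC and 0 GGGCGG, and the *Ltbp2* window 3 CAGAC and 2 GGGCGG. The table had 9 promoters for 7 of the 10 genes. *Tgfb3*, *Tgfbr3* and *Smad7* had no entry. CAGAC was in 7 of the 9 promoters and GGGCGG in 3, beside 49.6% and 35.7% of all 32851 mouse promoters of the same length. TATAAA was in the *Tgfb2* promoter (13.6% of all promoters), and TGACTCA, the site of AP-1, in that of *Ltbp3* (5.2%). These matches are letters in a window of 300 bases and say nothing on binding in these cells.

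The male-labelled libraries had 69764291 to 101575071 counts and the female-labelled ones 12761107 to 20781070, so the sex label and depth cannot be told apart. Counts of the 10 genes were high even in the shallow libraries, with a lowest value of 153. Some libraries stood apart. The male and female libraries numbered 1 were nearly alike within each genotype, with a spread of log2 ratios over genes of 0.116 in TauT-/- and 0.128 in TauT+/+. Counting error alone gives 0.0676 and 0.0707. The next closest pair, TauT+/+ male 3 and TauT-/- male 3, was of different genotypes and had 0.289. Sex-linked genes did not match the label of 3 libraries (TauT+/+ male 1, TauT-/- male 1 and TauT+/+ female 3). The values of the 10 genes are therefore given also for 13 libraries, with 1 of each near-identical pair left out. The targeted gene *Slc6a6* had 586 to 2655 CPM, counts per library of equal size, in TauT+/+ and 392 to 1571 CPM in TauT-/- libraries, so the genotypes overlapped (log2 fold change −0.94 ± 0.37 SE, adjusted p in edgeR 0.141). Its counts cover the whole gene and need not show a deletion of part of it. The MSC genes *Pdgfra* (63.0 to 579 and 17.8 to 225 CPM in TauT+/+ and TauT-/-) and *Pdgfrb* (436 to 914 and 264 to 779 CPM) were present in every library, while *Lepr*, a marker of marrow MSCs in the mouse, had at most 2.37 CPM.

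With edgeR's quasi-likelihood test, adjusted over all tested genes, 0 of the 10 genes passed an adjusted p of 0.05, where 1.16% of all tested genes did (108 lower and 103 higher in TauT-/-). At an unadjusted p under 0.05 there were 2 lower and 2 higher, and 23.6% of all tested genes. DESeq2, run on the same counts, called *Ltbp2* and *Smad7* lower and *Tgfb1* and *Tgfbr2* higher, where it called 11.6% of its 18045 genes. These DESeq2 values are from all 15 libraries, with both libraries of each near-identical pair counted, and the values given for 13 libraries are from edgeR. Of the 10 genes, 6 had a lower and 4 a higher fitted level in TauT-/- MSCs. Their median on the log2 scale was −0.16, beside 0.0049 for all tested genes. *Tgfbr2* was the 1 gene of 10 whose genotypes did not overlap over the 15 libraries, which 1.12% of all tested genes showed. Within the male-labelled libraries it was again the 1 of 10, beside 4.3%, and within the female-labelled libraries, beside 14.4%. These are bulk cultures, so fewer cells of a type and less RNA per cell cannot be told apart.

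**Figure D1:**
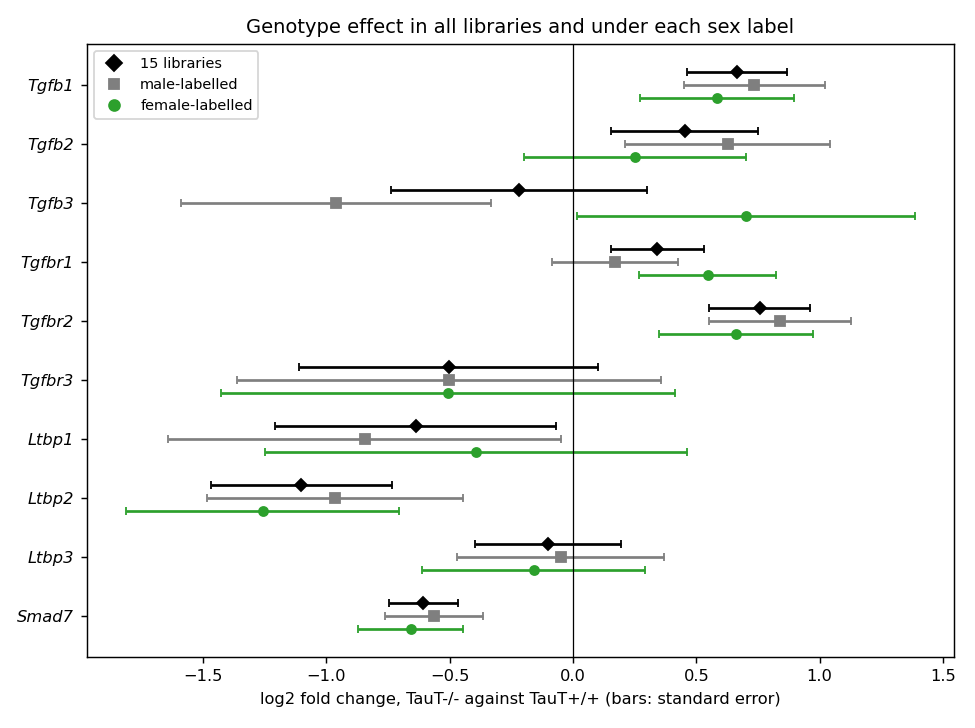
The log2 fold change of each of the 10 genes in TauT-/- against TauT+/+ MSCs (horizontal axis), in all 15 libraries (black) and under the male (grey) and female (green) label, with bars for the standard error of the edgeR fit. *Tgfb1* and *Tgfbr2* are above 0 and *Ltbp2* and *Smad7* below 0 under both labels, and *Tgfb3* has −0.96 under the male and 0.70 under the female label. Each label holds 1 library of each near-identical pair, so the labels are not separate sets.

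*Tgfb1* (chromosome 7 of GRCm39, 25386390 to 25404506, plus strand) encodes the ligand that is most widespread among tissues and is made by stromal and blood cells alike. Its level was 109, 62.6, 116 and 77.6 CPM in the 4 male TauT+/+ libraries and 110, 136, 171 and 191 CPM in the 4 male TauT-/- libraries. In the female libraries it was 133, 129 and 158 CPM in TauT+/+ and 114, 196, 212 and 318 CPM in TauT-/-. The highest library was TauT-/- female 4, and 5 of the 8 TauT-/- libraries were above every TauT+/+ library. The mean ± SD was 112 ± 33.0 CPM over 7 TauT+/+ and 181 ± 67.2 CPM over 8 TauT-/- libraries. The log2 fold change was 0.66 ± 0.20 (SE), with an adjusted p of 0.0859 in edgeR and 0.0337 in DESeq2. Leaving out 1 library at a time, it passed with edgeR in 1 of the 15 fits, without TauT-/- female 1 (edgeR adjusted p = 0.0493). The highest edgeR adjusted p of these fits was 0.169, without TauT+/+ female 1. Both libraries belong to the near-identical pairs. With 13 libraries the log2 fold change was 0.75 or 0.74, depending on which of each pair was kept (edgeR adjusted p = 0.101 and 0.116).

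The level of *Tgfb1* moved with the genes of macrophages across libraries. The summed level of a list of 25 macrophage genes was 1693 to 11166 CPM in TauT+/+ (median 9467) and 7749 to 28002 CPM in TauT-/- libraries (median 18690). Of the 25 genes, 24 had a higher fitted level in TauT-/- MSCs. EdgeR called 2 of them, *Cd68* and *Ctss*, and DESeq2 12, beside 1.16% and 11.6% of all tested genes. The library with the lowest sum (TauT+/+ male 2) had the lowest *Tgfb1*, and the library with the highest sum (TauT-/- female 4) had the highest. With the mean log2 CPM of this list as a covariate, the log2 fold change of *Tgfb1* was 0.12 in place of 0.66 (edgeR adjusted p = 0.819). The genes of this covariate were themselves mostly higher in TauT-/- MSCs, and with it edgeR called 0 of all 18263 tested genes. The part of the macrophage genes in the result for *Tgfb1* was not tested. The defining blood and macrophage genes were not at 0 in any library, although the cultures had been sorted for cells without CD45. *Ptprc*, which encodes CD45, had 28.6 to 177 CPM in TauT+/+ and 112 to 379 CPM in TauT-/-. *Csf1r*, the receptor of the macrophage growth factor, had 119 to 711 and 420 to 1663 CPM.

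**Figure D2:**
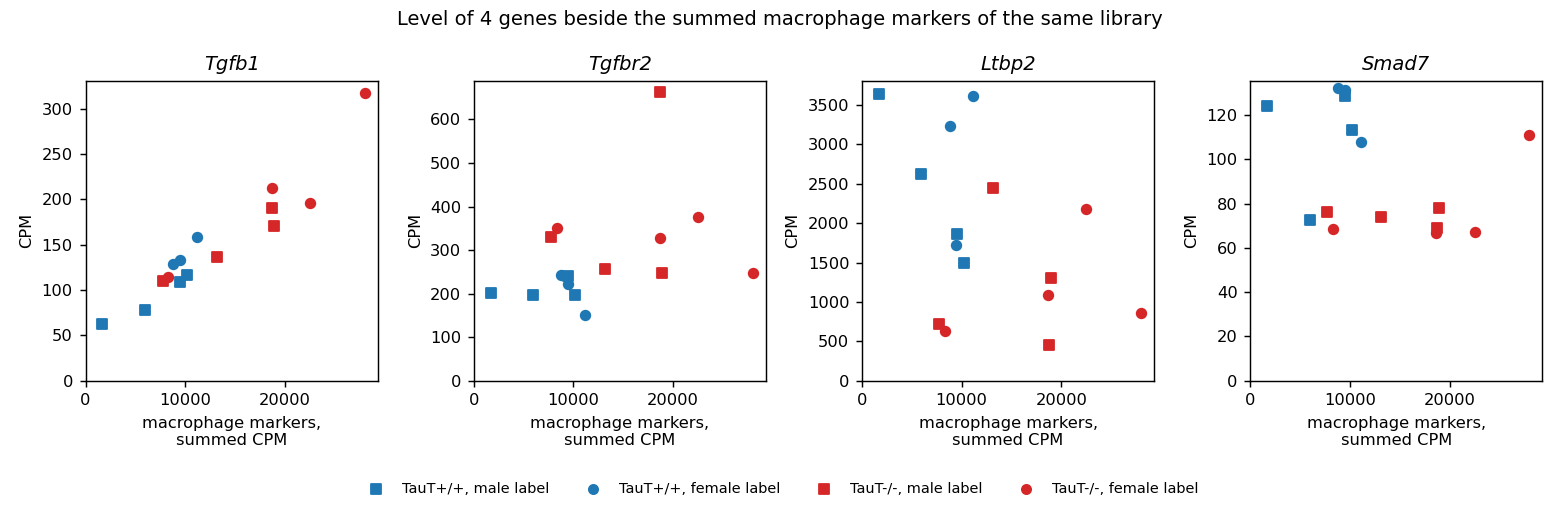
Levels of *Tgfb1*, *Tgfbr2*, *Ltbp2* and *Smad7* in CPM (vertical axes) beside the summed level of 25 macrophage genes in the same library, in CPM (horizontal axes), with 1 point for each of the 15 libraries, blue for TauT+/+, red for TauT-/-, squares for male and circles for female labels. *Tgfb1* runs from 62.6 CPM at the lowest sum to 318 CPM at the highest. The 4 *Smad7* values of the male TauT-/- libraries lie between 68.8 and 77.9 CPM at sums that run from 7749 to 18919 CPM. In the female TauT-/- libraries *Smad7* runs from 66.9 to 111 CPM, with 111 CPM at the highest sum, 28002 CPM.

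*Tgfb2* (chromosome 1, 186354985 to 186438294, minus strand), the ligand that needs betaglycan most, had 36.1, 69.3 and 144 CPM as the lowest, median and highest TauT+/+ library and 71.2, 87.9 and 196 CPM in TauT-/-. All 8 TauT-/- libraries were above the TauT+/+ median, yet only 2 were above the highest TauT+/+ library. In the fit the log2 fold change was 0.45 ± 0.30 (SE), with an adjusted p of 0.373 in edgeR, 0.44 or 0.46 with 13 libraries, and −0.08 with the macrophage covariate. *Tgfb3* (chromosome 12, 86102756 to 86126301, minus strand), the third ligand, ranged more widely within each genotype. It had 93.6, 201 and 423 CPM in TauT+/+ and 32.7, 151 and 492 CPM in TauT-/-, with the lowest value in TauT-/- male 4 and the highest in TauT-/- female 3. The groups overlapped over nearly the whole range (log2 fold change −0.22 ± 0.52 SE, adjusted p in edgeR 0.834). With 13 libraries it was −0.21 or −0.39.

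**Figure D3:**
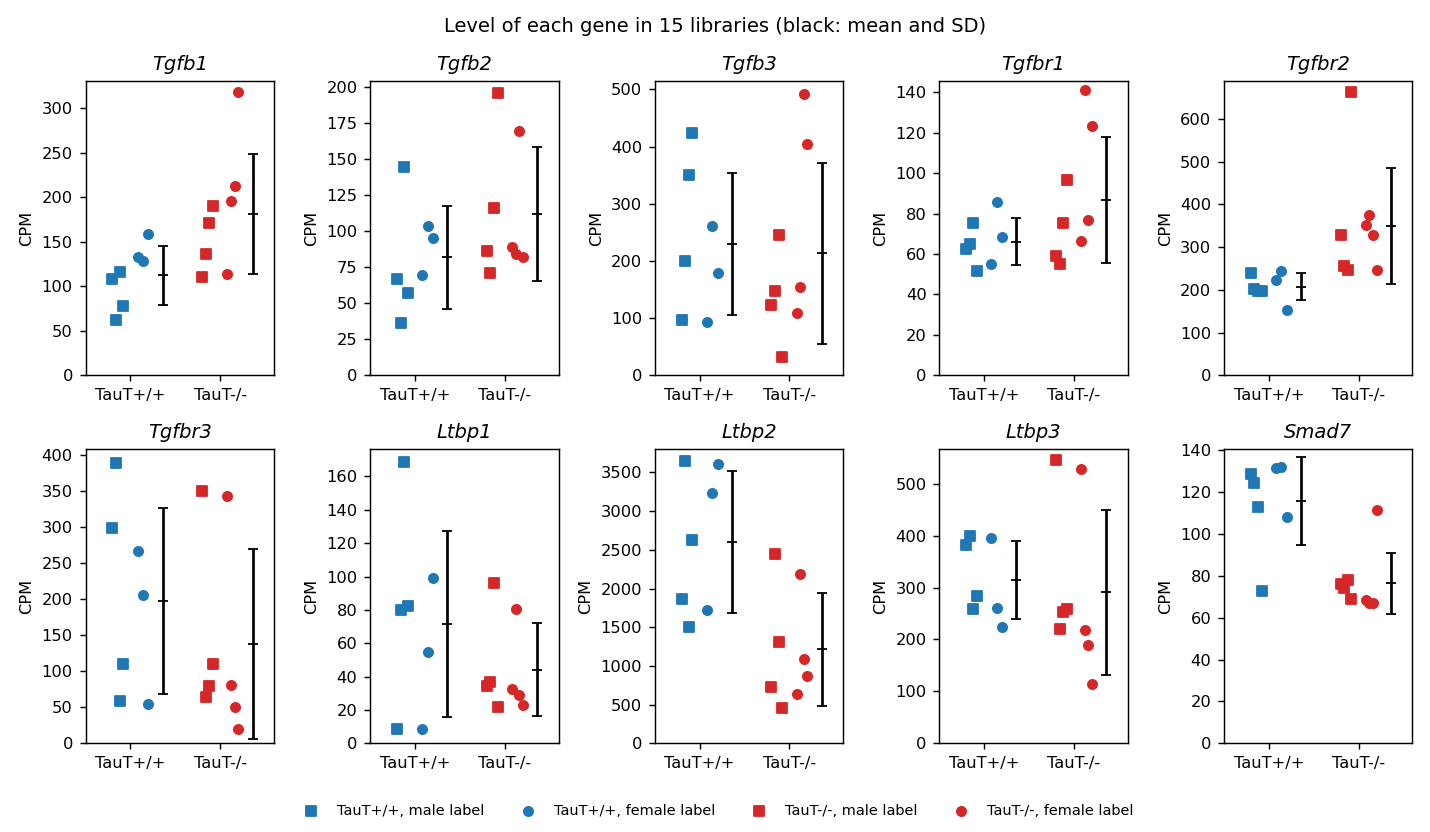
Level in CPM (vertical axes, from 0) of each of the 10 genes in the 15 libraries, blue for TauT+/+ and red for TauT-/-, squares for male and circles for female labels, with the mean and SD of each genotype in black. The 8 TauT-/- libraries of *Tgfbr2* sit between 247 and 663 CPM, all above the 7 TauT+/+ libraries, and 7 of the 8 TauT-/- libraries of *Smad7* sit between 66.9 and 77.9 CPM.

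*Tgfbr2* (chromosome 9, 115913361 to 116004800, minus strand) encodes the receptor that binds the ligand first. The male TauT+/+ libraries had 240, 202, 196 and 197 CPM and the male TauT-/- libraries 329, 257, 247 and 663 CPM. The female libraries had 223, 244 and 152 CPM in TauT+/+ and 352, 376, 329 and 247 CPM in TauT-/-. The TauT-/- libraries all lay above the TauT+/+ libraries, by a narrow margin between the highest TauT+/+ (244 CPM) and the lowest TauT-/- library (247 CPM), and TauT-/- male 4 stood far above the rest. The mean ± SD was 208 ± 31.6 CPM over 7 TauT+/+ and 350 ± 136 CPM over 8 TauT-/- libraries. The fitted difference on the log2 scale was 0.76 ± 0.20 (SE), with an adjusted p of 0.0676 in edgeR and 0.0113 in DESeq2. Without TauT-/- male 4 the log2 fold change was 0.54. With 13 libraries it was 0.79 or 0.78 (edgeR adjusted p = 0.0980 and 0.129). With the macrophage covariate it was 0.67 (edgeR adjusted p = 0.401), in a fit where edgeR called 0 of all tested genes. The part of the macrophage genes in the result for *Tgfbr2* was not tested.

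*Tgfbr1* (chromosome 4, 47353134 to 47414931, plus strand), the signalling partner of *Tgfbr2*, was the receptor gene with the smallest spread. It had 51.5, 64.8 and 85.7 CPM as the lowest, median and highest TauT+/+ library and 55.1, 76.0 and 141 CPM in TauT-/-. The groups overlapped, with 3 of 8 TauT-/- libraries above the TauT+/+ range (log2 fold change 0.34 ± 0.19 SE, adjusted p in edgeR 0.286), and with 13 libraries the log2 fold change was 0.39 or 0.32. *Tgfbr3* (chromosome 5, 107249402 to 107437623, minus strand) encodes betaglycan, a co-receptor that presents ligand to the type II receptor. It had 54.6, 206 and 389 CPM in TauT+/+ and 19.7, 80.3 and 350 CPM in TauT-/-. The near-identical libraries TauT-/- male 1 and TauT-/- female 1 held 350 and 344 CPM, and the other 6 TauT-/- libraries had at most 111 CPM. On the log2 scale the fold change was −0.50 ± 0.61 (SE), with an adjusted p of 0.642 in edgeR. With 13 libraries it was −0.81 or −0.83, without TauT-/- female 1 alone −1.05, and with the macrophage covariate 0.16.

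*Ltbp2* (chromosome 12, 84829986 to 84923306, minus strand) encodes a microfibril protein of the family which, unlike LTBP1 and LTBP3, does not bind latent TGF-beta. The male TauT+/+ libraries had 1863, 3644, 1500 and 2629 CPM and the male TauT-/- libraries 722, 2446, 1305 and 460 CPM. The female libraries had 1727, 3232 and 3607 CPM in TauT+/+ and 632, 2184, 1094 and 864 CPM in TauT-/-. Below the lowest TauT+/+ library lay 6 of the 8 TauT-/- libraries, and the replicates numbered 2 of both labels lay within the TauT+/+ range. The mean ± SD was 2600 ± 915 CPM over 7 TauT+/+ and 1213 ± 732 CPM over 8 TauT-/- libraries. The log2 fold change was −1.10 ± 0.37 (SE), with an adjusted p of 0.102 in edgeR and 0.0314 in DESeq2. The fold change was a 2.15-fold reduction, the largest in size among the 10 genes. With 13 libraries it was −1.09 or −1.10 on the log2 scale (edgeR adjusted p = 0.143 and 0.159), and −0.89 with the macrophage covariate. The summed level of 16 MSC genes was also lower in TauT-/- (7249 to 41438 CPM, median 21648) than in TauT+/+ libraries (28424 to 47210 CPM, median 31719). A few abundant genes made up most of this sum, among them *Col1a1* (means of 12751 CPM in TauT+/+ and 8100 CPM in TauT-/-) and *Col1a2* (7077 and 5874 CPM). Of the 16 genes 10 were lower and 6 higher in sign. EdgeR called 0 of them, and DESeq2 2 lower and 1 higher. Of all tested genes, edgeR called 1.16% and DESeq2 11.6%. The part of this sum in the result for *Ltbp2* was not tested.

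*Ltbp1* (chromosome 17, 75312519 to 75699507, plus strand), which carries latent TGF-beta into the matrix, was the least abundant and the most variable of the 3 binding proteins. It had 8.49, 79.7 and 168 CPM as the lowest, median and highest TauT+/+ library and 21.99, 33.5 and 95.9 CPM in TauT-/-. The near-identical libraries TauT+/+ male 1 and TauT+/+ female 1 were the lowest of all, at 8.49 and 8.58 CPM, and the TauT-/- values lay wholly within the TauT+/+ range. In the fit the log2 fold change was −0.64 ± 0.57 (SE), with an adjusted p of 0.520 in edgeR, and −0.74 or −0.83 with 13 libraries. *Ltbp3* (chromosome 19, 5790932 to 5808669, plus strand), needed for secretion of latent TGF-beta and for bone growth, had 224, 283 and 398 CPM in TauT+/+ and 114, 236 and 545 CPM in TauT-/-. The TauT-/- libraries spread to both sides of the TauT+/+ range, with 4 below and 2 above it, and these 2 were the near-identical libraries (545 and 528 CPM). The fitted difference on the log2 scale was −0.10 ± 0.30 (SE), with an adjusted p of 0.870 in edgeR, and −0.27 or −0.21 with 13 libraries.

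*Smad7* (chromosome 18, 75500374 to 75529006, plus strand) varied least within groups, with an SD of log2 CPM of 0.28 beside 0.38 to 1.37 for the other 9 genes. The male TauT+/+ libraries had 128, 124, 113 and 72.8 CPM and the male TauT-/- libraries 76.0, 74.1, 77.9 and 68.8 CPM. The female libraries had 131, 132 and 108 CPM in TauT+/+ and 68.5, 67.2, 66.9 and 111 CPM in TauT-/-. All 8 TauT-/- libraries were below the TauT+/+ median of 124 CPM, yet the groups overlapped. TauT+/+ male 4 had 72.8 CPM, and TauT-/- female 4, at 111 CPM, was also above TauT+/+ female 3 at 108 CPM. The mean ± SD was 116 ± 21.1 CPM over 7 TauT+/+ and 76.3 ± 14.7 CPM over 8 TauT-/- libraries. On the log2 scale the fold change was −0.61 ± 0.14 (SE), with an edgeR p of 0.000639 that became 0.0509 after adjustment. DESeq2 gave an adjusted p of 0.00259. Leaving out 1 library at a time, the edgeR call was made without TauT+/+ male 3, TauT+/+ male 4 or TauT-/- female 4, 3 of the 15 fits. The log2 fold change lay between −0.72 and −0.57 in these fits, was −0.59 or −0.56 with 13 libraries (edgeR adjusted p = 0.0912 and 0.121), and −0.67 with the macrophage covariate (edgeR adjusted p = 0.247).

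Under the male label alone the log2 fold changes of the 4 genes with the lowest p were 0.73 for *Tgfb1*, 0.84 for *Tgfbr2*, −0.97 for *Ltbp2* and −0.56 for *Smad7*. Under the female label they were 0.58, 0.66, −1.26 and −0.66. The labels are not separate sets, since each holds 1 library of each near-identical pair. Sex-linked genes also went against the label of TauT+/+ male 1, TauT-/- male 1 and TauT+/+ female 3. With edgeR, 0 of the 10 genes passed the adjusted threshold under the male label, as did 0% of all tested genes, and 1 lower and 2 higher had an unadjusted p under 0.05 (8.7% of all tested genes). Under the female label 0 passed as well, again 0% of all tested genes, with 2 lower and 0 higher at an unadjusted p under 0.05 (14.8% of all). DESeq2 called 0 of the 10 under either label. The genotype effect of *Tgfb3* had opposite signs, −0.96 under the male and 0.70 under the female label, yet the difference of 1.66 ± 0.93 (SE) did not pass (edgeR adjusted p = 1.00). For the other 9 genes that difference lay between −0.38 and 0.45. The test of the difference called 0 of the 10 genes and 0% of all genes with edgeR, had 0 of the 10 and 1.62% of all genes at an unadjusted p under 0.05, and called 0 of the 10 with DESeq2.

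Levels between genes were compared per length, as CPM per kb of the union of annotated exons. The order of the medians over the 15 libraries was *Ltbp2* (211 CPM per kb), *Tgfb3* (34.5), *Tgfbr2* (28.05), *Ltbp3* (27.6), *Tgfb1* (26.2), *Smad7* (16.4), *Tgfbr3* (16.02), *Tgfb2* (13.8), *Tgfbr1* (10.3) and *Ltbp1* (3.40). *Ltbp2* was above *Tgfb3* in 15 of 15 libraries, and *Tgfbr1* above *Ltbp1* in 14. From *Tgfb3* down to *Tgfb2*, neighbours in the order were ranked that way in only 6 to 9 of 15 libraries, so their order is within the spread. Among the ligands *Tgfb3* had the highest level per length in 10 libraries and *Tgfb1* in 5, and *Tgfb2* was lowest in 13. Among the receptors *Tgfbr2* was highest in 9 libraries, 3 TauT+/+ and 6 TauT-/-, and *Tgfbr3* in the other 6, 4 TauT+/+ and 2 TauT-/-. Among the binding proteins *Ltbp2* was highest and *Ltbp1* lowest in all 15 libraries.

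**Figure D4:**
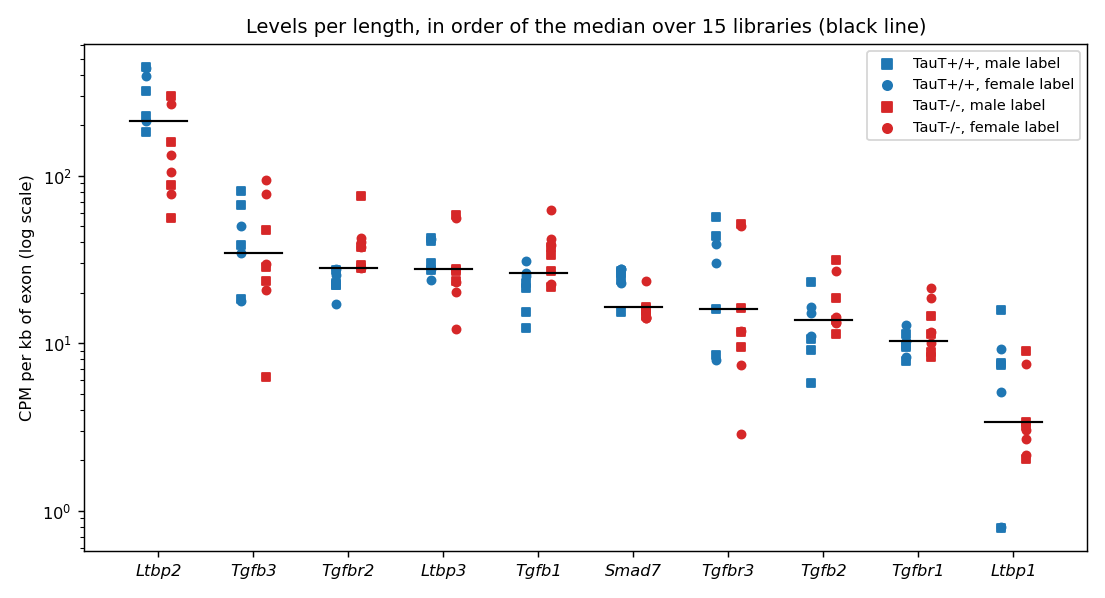
Level per length of the 10 genes, in CPM per kb of exon on a log axis (vertical), ordered by the median over 15 libraries (black line), blue for TauT+/+, red for TauT-/-, squares for male and circles for female labels. *Ltbp2* is at 56.2 to 445 CPM per kb, and the medians of the other 9 genes lie between 3.40 and 34.5 CPM per kb.

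Gene length cancels where a ratio of genes is compared between the genotypes. The log2 ratio of *Tgfbr3* to *Tgfbr2*, co-receptor to signalling receptor, was −0.40 ± 0.99 (mean ± SD) over 7 TauT+/+ and −1.83 ± 1.29 over 8 TauT-/- libraries. The difference, averaged over the sex labels, was −1.42 (two-sided exact permutation p = 0.0461, 0.138 adjusted over 3 ratios), where the smallest p the 2450 arrangements can give is 0.000408. The groups overlapped, from −1.75 to 0.94 in TauT+/+ and from −3.62 to 0.09 in TauT-/-, and without TauT-/- female 1 the difference was −1.77 with an adjusted exact permutation p of 0.0429. With 13 libraries it was −1.58 or −1.59 (adjusted exact permutation p = 0.0986 and 0.0557). The ratio of *Tgfb3* to *Tgfb1* differed by −0.88 (exact permutation p = 0.142, 0.214 adjusted) and that of *Tgfb2* to *Tgfb1* by −0.17 (exact permutation p = 0.567, before and after adjustment).

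The other genes of the pathway were taken in 4 lists that share no gene. Of 28 genes of signal transduction and its regulators, 27 were tested, with 8 lower and 19 higher in sign and a median log2 fold change of 0.11. EdgeR called 0 of them and DESeq2 0, beside 1.16% and 11.6% of all tested genes. At an unadjusted p under 0.05 edgeR had 1 lower and 3 higher, beside 23.6% of all tested genes. The genes with the lowest p were *Cd109*, a surface co-receptor that restrains TGF-beta signalling (37.7 ± 14.8 to 60.3 ± 16.5 CPM, log2 fold change 0.72, edgeR adjusted p = 0.106), *Tab2*, an adaptor of the kinase TAK1 (0.45, 0.109), and *Strap*, a receptor-bound protein that aids the inhibitory action of SMAD7 (0.23, 0.145). The SMADs that carry the signal had log2 fold changes of 0.15 (*Smad2*) and 0.51 (*Smad3*), with edgeR adjusted p of 0.349 and 0.354. These genes and *Smad6* were singled out after their values were seen. *Smad6*, the inhibitory SMAD of the BMP branch, went from 115 ± 57.2 to 57.8 ± 29.8 CPM (log2 fold change −0.996, edgeR adjusted p = 0.175).

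Of 31 genes of latency, storage and activation, 29 were tested, with 17 lower and 12 higher in sign and a median log2 fold change of −0.09. EdgeR called 0, with 4 lower and 3 higher at an unadjusted p under 0.05, beside 23.6% of all tested genes. DESeq2 called 3, all lower, where it called 11.6% of all its genes. These 3 were also the genes with the lowest edgeR p. *Bgn* encodes biglycan, a small proteoglycan that binds TGF-beta, and had 7597 ± 2182 CPM (mean ± SD) over 7 TauT+/+ and 4432 ± 1520 CPM over 8 TauT-/- libraries (log2 fold change −0.78 ± 0.23 SE, adjusted p in edgeR 0.0835). *Dcn* encodes decorin, of the same family, and had 49.6 ± 45.7 and 7.70 ± 9.89 CPM (log2 fold change −2.63 ± 0.99 SE, adjusted p in edgeR 0.133), with TauT+/+ libraries from 1.56 to 111 CPM. *Emilin1* encodes an elastic fibre glycoprotein that holds back processing of the TGF-beta precursor, and had 369 ± 95.7 and 261 ± 51.8 CPM (log2 fold change −0.47 ± 0.16 SE, adjusted p in edgeR 0.0998).

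All 35 target genes were tested, with 20 lower and 15 higher in sign and a median log2 fold change of −0.12. EdgeR called 0, with 4 lower and 2 higher at an unadjusted p under 0.05, beside 23.6% of all tested genes. DESeq2 called 1 lower and 1 higher, where it called 11.6% of all its genes. The lower call was *Myl9*, a myosin light chain of contractile cells, at 918 ± 165 CPM (mean ± SD) over 7 TauT+/+ and 491 ± 181 CPM over 8 TauT-/- libraries (log2 fold change −0.90 ± 0.28 SE, adjusted p in edgeR 0.0868). Every TauT-/- library (127 to 654 CPM) was below every TauT+/+ library (709 to 1121 CPM), a separation that 1.12% of all tested genes showed. *Ccn1*, a matricellular protein gene, had 1291 ± 396 and 791 ± 253 CPM (−0.71, edgeR adjusted p = 0.117).

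Of 12 genes of the activin branch, which uses related receptors and the same SMADs, 9 were tested, with 4 lower and 5 higher in sign and a median log2 fold change of 0.05. EdgeR called 0, with 2 lower and 1 higher at an unadjusted p under 0.05, beside 23.6% of all tested genes. DESeq2 called *Inha* lower and *Inhbb* higher, where it called 11.6% of all its genes. *Inhbb*, the inhibin beta B subunit, had 48.3 ± 38.3 and 103 ± 46.2 CPM (log2 fold change 1.29, edgeR adjusted p = 0.111), and 2.17 with the macrophage covariate. *Inha*, the alpha subunit that turns activin chains into inhibin, had 8.54 ± 5.21 and 4.39 ± 1.29 CPM (−0.96, edgeR adjusted p = 0.119). *Acvr2a*, an activin type II receptor, had 26.7 ± 7.81 and 19.8 ± 2.98 CPM (−0.42, edgeR adjusted p = 0.175).

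**Figure D5:**
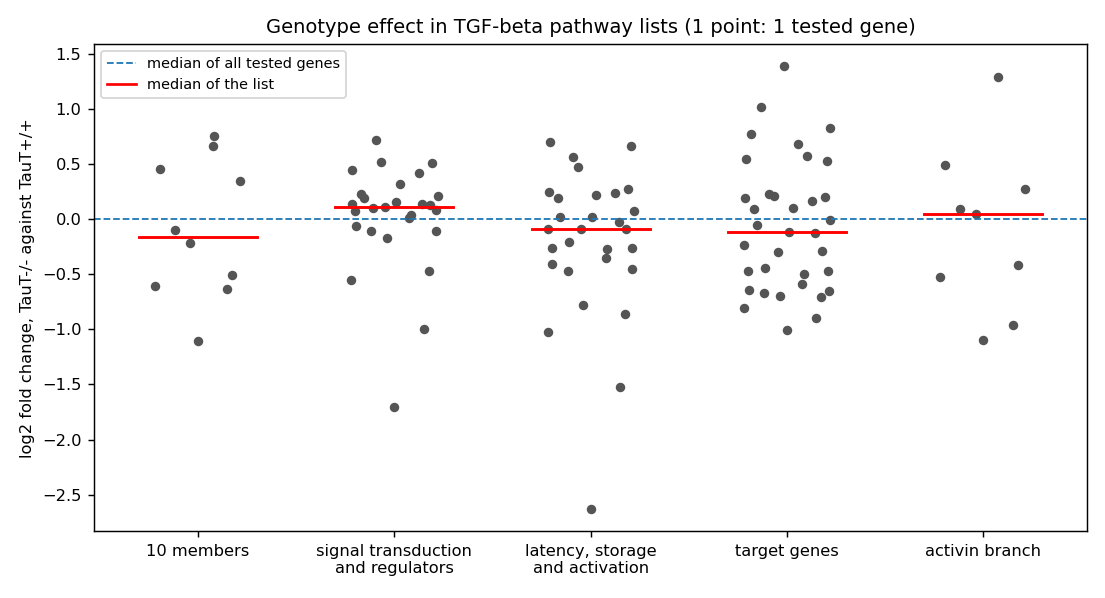
Log2 fold change in TauT-/- against TauT+/+ MSCs (vertical axis) of every tested gene among the 10 genes and the 4 pathway lists (horizontal axis), 1 point for each gene, with the median of each group in red and that of all tested genes as a dashed line. The medians run from −0.16 for the 10 genes to 0.11 for signal transduction, around 0.0049 for all tested genes.

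The genes whose levels ran most closely with each ligand were found from log2 CPM after the mean of each of the 4 groups was subtracted, among 13202 genes over 15 libraries, 4 of which form the near-identical pairs. Closest to *Tgfb1* were *Adap1*, a regulator of ARF6 (Pearson r = 0.98, Spearman rho = 0.97), *Cdc42se2*, an effector of CDC42 (0.98 and 0.95), and *Kcnab2*, a potassium channel subunit (0.97 and 0.93). Without the 2 libraries farthest from the median of *Tgfb1*, r was 0.97, 0.96 and 0.96. Closest to *Tgfb2* was *Alg8*, an enzyme of protein glycosylation (r = 0.92, rho = 0.87), then *Gm35546* (0.87 and 0.77) and *Uba6*, an enzyme that activates ubiquitin (0.86 and 0.78), and without the 2 farthest libraries r was 0.91, 0.72 and 0.76. Closest to *Tgfb3* were the actin gene *Acta1* (r = 0.91, rho = 0.83), the actin crosslinker gene *Actn4* (0.89 and 0.81) and *Gm48529* (0.88 and 0.80), with 0.86, 0.80 and 0.83 without the 2 farthest libraries. Libraries share their culture, depth and cell makeup, and these values describe the 15 libraries only.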

How the data were processed

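Total RNA of 15 mouse MSC cultures was made into full-length cDNA libraries primed with oligo-dT (SMART-Seq mRNA LP). Per the submitters' processing notes, fastp 0.23.1, STAR 2.7.9a and featureCounts of Subread 2.0.1 were used with GRCm39. The authors deposited whole-number counts per gene, 1 column for each library, without normalization, and strand is not kept by this kit. The study's methods name a strand-specific option for the counting, and its effect on the counts was not tested. From these counts, CPM were computed with TMM library sizes, and genes were kept by filterByExpr by group. The main test was the quasi-likelihood test of edgeR 4.0.16 (limma 3.58.1, R 4.3.3) with labelled sex and genotype over all 15 libraries, with Benjamini-Hochberg adjustment over 18263 genes. A model with 1 term per sex and genotype gave the effects under each sex label and their difference. DESeq2 1.42.0, limma voom, other normalizations, filters, covariates and sets of libraries were alternatives. A filter on the design matrix was added after seeing the data. Scripts were tested on simulated data. Ratios used a pseudocount of 0.5 CPM. Gene positions and exon lengths are those of GENCODE M39 on GRCm39, while the study's methods name an earlier GENCODE release for the counting.

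Groups come from the labels, which do not say whether libraries came from separate mice, so p-values measure the spread between these libraries, which may be technical. Totals of 12761107 to 101575071 counts make counting error small for the 10 genes, whose lowest count was 153. It is larger for named genes with few reads, such as *Dcn*, with a lowest count of 15, and the marker genes near 0 CPM. The members and lists were chosen with earlier results of these data known. All 10 members are named, with any gene called by edgeR and the 3 lowest p-values among the others of each pathway list, the 3 genes most like each ligand (at a mean of at least 1 CPM) and *Slc6a6*. No protein sequence was used here, and 1 gene that the naming rule picks among the target genes, with 1 marker gene, is not reported here.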

Additional observations from a re-analysis of the deposited data

Results flagged for a closer look

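In the groups of 4 libraries, 22 genes were looked at for a library far from the other 3 (a gap past Dixon's 95% critical value), 66 groups in all. There were 4 such cases, where chance gives about 3.3. *Smad7* in female TauT-/- MSCs had 111 CPM in TauT-/- female 4 and 66.9 to 68.5 CPM in the other 3 (gap 0.953 of the range), and without that library *Smad7* passed the adjusted threshold with edgeR. The same library had the highest summed macrophage genes, 28002 CPM, and the part of this in its *Smad7* level was not tested. *Tgfb2* had 170 CPM in TauT-/- female 3 and 82.4 to 89.2 CPM in the other 3 (gap 0.891). *Tgfbr2* had 240 CPM in TauT+/+ male 1 and 196 to 202 CPM in the other 3 (gap 0.847), close to the 223 CPM of its near-identical partner TauT+/+ female 1. *Myl9* had 127 CPM in TauT-/- male 4 and 574 to 654 CPM in the other 3 (gap 0.920).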

How the results depend on the processing

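The count of called genes among the 10 depended on the tool. EdgeR gave 0, DESeq2 4 and voom 2. It was 1 with upper-quartile normalization, with at least 10 counts in every library, with no sex term, with the design-matrix filter chosen after seeing the data, and with the replicate block, and 0 to 1 on leaving out 1 library at a time. The pathway lists, with 0 calls each in edgeR, had 3 (latency), 2 (targets) and 2 (activin) with DESeq2, and 1 (signal transduction), 2 (latency), 2 (targets) and 1 (activin) with voom. On leaving out 1 library they had 0 to 2 (latency), 0 to 1 (targets) and 0 to 1 (activin), each highest without TauT+/+ male 3. The causes were not tested.

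The replicate numbers were not taken to pair the libraries, since not every pair correlated above 0.1. The correlations of same-numbered libraries were 0.25, 0.24, 0.63 and 0.17 for males and 0.31, 0.096 and −0.04 for females, 5 of 7 over 0.1. With a block for the number, fitted on 14 libraries since TauT-/- female 4 has no partner, edgeR called *Smad7* (adjusted p = 0.0436) and 1 target gene, and 158 genes lower and 75 higher overall.

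Fitted log2 fold changes turned in sign with the macrophage covariate for *Tgfb2* (−0.082), *Tgfbr3* (0.16) and *Ltbp3* (0.30), with voom for *Ltbp1* (0.27), in female libraries alone for *Tgfb3* (0.68), and on leaving out 1 library for *Tgfb3* (−0.48 to 0.033, the latter without TauT-/- male 4) and *Ltbp3* (−0.35 to 0.0094, above 0 without TauT+/+ female 1 or TauT-/- female 4). None of these passed the threshold. The ratio of *Tgfb3* to *Tgfb1* turned in female libraries alone (0.056), and that of *Tgfbr3* to *Tgfbr2* ran from −1.77 to −1.18 on leaving out 1 library, past the threshold without TauT-/- female 1. In all 30 alternatives *Tgfb1*, *Tgfbr1*, *Tgfbr2*, *Ltbp2* and *Smad7* kept their sign, and were called in 2, 0, 2, 1 and 10 of them.

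Over all genes, edgeR called 108 lower and 103 higher, 1139 and 952 with DESeq2, 535 and 659 with voom, 202 and 208 with no sex term, 42 and 32 with no filter, 0 and 0 with the macrophage covariate, and 0 and 2 or 0 and 7 with 13 libraries. Leaving out 1 library gave most calls without TauT+/+ male 3 (766 and 470) and fewest without TauT+/+ female 1 or female 2 (4 and 8). The 13-library fits have fewer samples and also hold only 1 library of each near-identical pair. The part of either in these counts was not tested.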

Other observations

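Markers of other cells that a marrow culture can hold were read as whole lists beside the 10 genes, with 0 genes called by edgeR in each list below. Over all tested genes edgeR called 1.16% and DESeq2 11.6%, and 23.6% had an unadjusted edgeR p under 0.05. The endothelial list (10 genes, 7 tested, 3 lower and 4 higher in sign) summed to 8.55 to 20.05 CPM in TauT+/+ and 12.4 to 114 CPM in TauT-/- libraries, with 2 higher at an unadjusted p under 0.05. DESeq2 called *Kdr* higher, at a mean of 2.85 CPM in TauT+/+ and 16.3 CPM in TauT-/- (log2 fold change 2.18). *Vwf* had 7.86 and 21.97 CPM (1.35), and the defining genes *Pecam1*, which encodes CD31, and *Cdh5* had at most 6.68 and 0.693 CPM. The erythroid list (8 genes, 2 tested, both lower in sign) summed to at most 4.66 CPM, with *Alas2* at most 0.0483 CPM, 1 gene lower at an unadjusted p under 0.05, and DESeq2 called *Epor* lower. The platelet list (8 genes, 4 tested, 2 lower and 2 higher in sign) summed to 17.3 to 99.2 and 15.5 to 148 CPM, with 0 genes at an unadjusted p under 0.05, 0 called by DESeq2, and *Pf4* at 14.1 to 90.1 and 8.86 to 140 CPM.

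The osteoblast list (8 genes, 7 tested, 6 lower and 1 higher in sign) summed to 1579 to 7563 CPM (median 4231) in TauT+/+ and 3328 to 17070 CPM (median 9794) in TauT-/- libraries, with 1 lower and 1 higher at an unadjusted p under 0.05. Most of the summed level was *Spp1*, and the other tested genes of the list were all lower in sign. DESeq2 called *Spp1*, which encodes osteopontin and is also made by macrophages, higher, at a mean of 4020 CPM in TauT+/+ and 10393 CPM in TauT-/- (log2 fold change 1.39, edgeR adjusted p = 0.0876). *Runx2* had 54.2 and 40.96 CPM (−0.39, edgeR adjusted p = 0.129) and *Alpl* at most 476 CPM, while the defining genes *Sp7* and *Bglap* had at most 55.1 and 0.551 CPM. The 8 smooth muscle and pericyte genes summed to 1022 to 2736 CPM in TauT+/+ and 190 to 1947 CPM in TauT-/- libraries, with 5 of 8 lower in sign, 1 lower at an unadjusted p under 0.05 and 0 called by DESeq2. Their defining gene *Myh11* had 36.7 to 364 and 0.291 to 162 CPM. The part of these lists in the results for the 10 genes and *Myl9* was not tested. *Kdr*, *Vwf*, *Epor*, *Spp1*, *Runx2* and *Alpl* were named after their values were seen.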
